A study of Populus tremula x Populus alba with 10 samples.

Results

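The gene PtXaAlbH.03G169600 was found in 321 of 16950 nuclei from poplar stems, and the subject here is the 100 genes whose RNA was most concentrated in those nuclei, of 31823 genes in all. Nuclei with at least 200 detected genes were used, and a nucleus counted as anchor-positive when it held at least 1 UMI (unique molecular identifier, the tag that marks 1 captured RNA molecule) of this anchor gene. For each gene, the share of counts in CPM (counts per 1000000 counts) in anchor-positive nuclei were divided by CPM in the other nuclei, with 50 CPM added to both and the UMIs pooled per treatment. The lower of the drought and control log2 ratios is the ratio given below. Members needed at least 30 UMIs in anchor-positive nuclei and a higher ratio for this anchor than for any of 6 other anchor genes. There were 1984 genes with enough UMIs besides the anchor, 552 of them met the second condition, and the 100 with the highest ratios are the members. The members were thus chosen by the ratios, which are given as a description. No file gives names for the gene IDs, so genes are given by ID, without the shared prefix PtXaAlbH after first mention, and no function or cell type is assigned to them.

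The plants were hybrid poplars, Populus tremula x alba INRA clone 717 1B4, grown in peat for 6 weeks before treatment. Severe drought plants were held for 14 days at 15% of field capacity, the water that a soil keeps after draining, and control plants stayed well watered near field capacity, a volumetric soil moisture of 0.46. Single-nucleus RNA came from sorted stem nuclei, with 2 drought and 2 control libraries and 1 plant per library, and bulk RNA came from stems, with 3 drought and 3 control libraries. All plants are 1 clone, no label names a plant used in both assays, and the labels give no age other than the weeks of growth.

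The nuclei libraries held 1930997 and 1994615 UMIs under drought, against 4346198 and 3633900 in controls, and the bulk libraries held between 47900128 and 57594846 counts. Bulk drought library 2 stood apart from the others of its group. The chi-square per degree of freedom of its counts was 135 against drought library 1 and 163 against drought library 3, compared with 10.3 between drought libraries 1 and 3 and at most 29.6 between control libraries. Between 18 and 56 barcodes were shared by any 2 nuclei libraries, the most being between both drought libraries.

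A stem holds several tissues, among them bark, phloem, cambium and xylem, and a nucleus is a sample of 1 cell. Nuclear RNA is enriched for transcripts that have not left the nucleus, while total RNA comes mostly from the cytoplasm, so a gene's level can differ between the assays. Gene IDs of this form carry a chromosome number and a running number, and IDs that follow each other are taken here to be neighbours, 1 step being 100 in the running number. Plant genomes hold many tandem copies of genes, and reads of near-identical neighbours can be split between them by the counting. Whether the neighbours described here are copies of each other was not tested, so their separate counts are uncertain.

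The anchor was rare in every nuclei library. It was found in 50 of 3172 nuclei of drought library 1 (1.58%, exact binomial 95% interval 1.17% to 2.07%) and in 123 of 3739 of drought library 2 (3.29%, 2.74% to 3.91%). In controls it was found in 84 of 4342 nuclei of library 1 (1.93%, 1.55% to 2.39%) and in 64 of 5697 of library 2 (1.12%, 0.866% to 1.43%). These intervals cover counting error only. Drought library 2 was the highest, and drought library 1 lay between both controls. The mean share was 2.43% ± 1.21 under drought and 1.53% ± 0.574 in controls (SD, n = 2 libraries each), a difference of 0.904 percentage points that was within the spread of the libraries (exact two-sided permutation p = 0.67, where 2 against 2 libraries can give no less than 0.33). Without drought library 2 the difference was 0.047 percentage points, and without drought library 1 it was 1.76.

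Depth bears on such a share. Anchor-positive nuclei had a median of 543 and 443 UMIs under drought, against 943.5 and 628 in controls, and the other nuclei a median of 429 and 352 UMIs under drought, against 741 and 512 in controls. With every nucleus thinned to 250 UMIs, and shallower nuclei left out (217 and 479 under drought, 16 and 122 in controls), the shares were 0.778% and 2.21% under drought, against 0.647% and 0.484% in controls. The thinned groups did not overlap, and the exact permutation p was 0.33, the smallest this design allows.

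Few UMIs lay behind each positive call. The anchor had 64 and 194 UMIs in the drought libraries, against 124 and 77 in the control libraries, and at most 5 in any 1 nucleus. Only 67 of the 321 positive nuclei held at least 2. Its level over whole nuclei libraries was 33.1 and 97.3 CPM under drought, against 28.5 and 21.2 CPM in controls.

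In bulk RNA the anchor was almost absent. It had 0, 10 and 4 counts in the drought libraries, against 0, 2 and 0 in the controls, while a count of 0 at these depths allows up to 0.0521 to 0.0626 CPM. The highest bulk level was 0.188 CPM. Of 6983 genes with a mean nuclei level at least as high as the anchor's, only 13, with the anchor counted, had a mean bulk level as low as its own.

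The genes found with the anchor most strongly were its neighbours by ID. The 4 members with the highest ratios were 03G169300 (log2 ratio 3.80), 03G169400 (3.59), 03G169100 (2.38) and 03G169700 (1.69), which lie 3, 2 and 5 steps before the anchor and 1 step after it in the numbering. The ratio then dropped to 1.16 at the gene of rank 5. The genes numbered between them were hardly detected at all: 03G169500 had no UMI in any library, and 03G169200 had 0 and 1 under drought, against 2 and 2 in controls. The gene 03G169800, 2 steps after the anchor, had 7 and 2 UMIs under drought and 9 and 12 in controls, none of them in an anchor-positive nucleus.

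**Figure D1:**
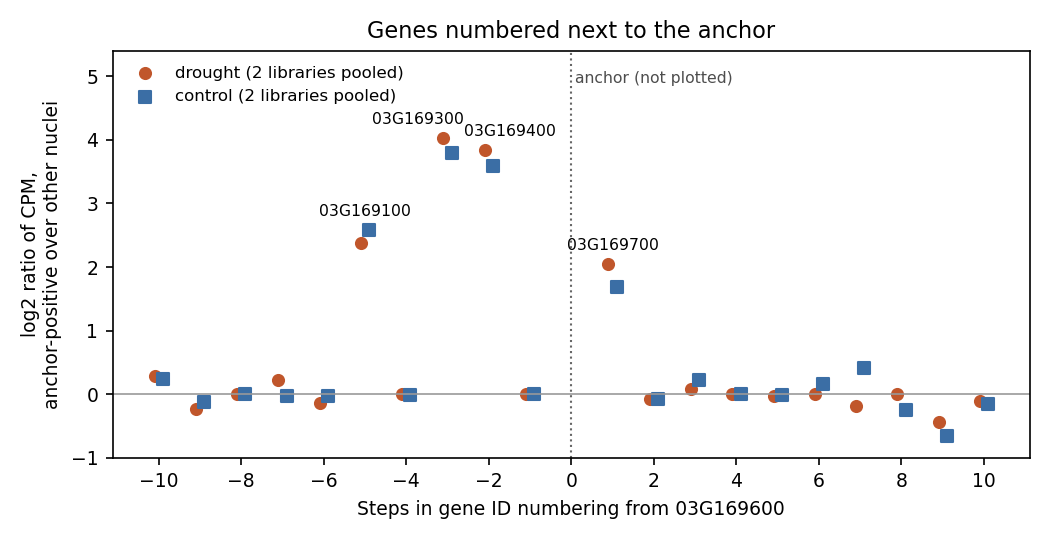
Log2 ratio of CPM in anchor-positive nuclei to CPM in other nuclei (50 CPM added, y axis) for the genes within 10 steps of the anchor in ID numbering (x axis), with circles for the 2 drought libraries pooled and squares for the 2 control libraries pooled. The 4 labelled neighbours lie at 1.69 or above under both treatments, and the other genes shown lie at or below 0.41.

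Each of the 4 neighbours was above 0 in all 4 libraries taken singly. The ratio of 03G169300 was 3.80 and 4.01 under drought, against 3.78 and 3.85 in controls. That of 03G169400 was 3.00 and 4.08 under drought, against 3.35 and 3.93 in controls. That of 03G169100 was 2.35 and 2.31 under drought, against 2.55 and 2.63 in controls. The widest spread was that of 03G169700, at 0.88 and 2.31 under drought, against 1.82 and 1.47 in controls, where drought library 1 rested on 3 UMIs in its positive nuclei.

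A run of neighbours of this kind was not particular to this anchor gene. Within 5 ID steps, 4 of 10 genes had a log2 ratio of 1 or more for 03G169600, 3 of 10 did for the anchor 03G005800, and none of 10 did for each of the other 5 anchors. Just outside these 5 steps, 03G006400 lay 6 steps after 03G005800 and had a ratio of 2.56 for it. One further member of the present list, 03G168000, lay 16 steps before 03G169600 and had a ratio of 0.90. The 4 neighbours were set apart after their values were seen, so no test was made of them as a group.

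The anchor and its neighbours were often found in the same nuclei, but not always. Over all libraries, 716 nuclei held a neighbour UMI, 232 of them with an anchor UMI and 484 without. At least 1 UMI of the 4 neighbours was present in 50.0% and 73.2% of anchor-positive nuclei under drought, against 75.0% and 84.4% in controls. Among anchor-negative nuclei the shares were 2.47% and 4.09% under drought, against 2.91% and 2.40% in controls. Over all libraries, 03G169300 and the anchor were both found in 201 nuclei, where 7.40 would be found together if detection were independent, a 27.1-fold excess. The pair 03G169400 and 03G169300 shared 206 nuclei (23.4-fold), and 03G169700 and the anchor shared 41 (10.8-fold). These folds are descriptions, because the neighbours are members chosen for their concentration in anchor-positive nuclei. Besides, deeper nuclei hold more of every gene. Of the 321 anchor-positive nuclei, 89 held the anchor alone, 52 held 2 of the 5 genes, 113 held 3, 46 held 4 and 21 held all 5.

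The other 96 members were concentrated much less. After the neighbours came 07G057000 (log2 ratio 1.16), 04G036600 (1.12), 02G185700 (1.10) and 13G122600 (1.08). In all, 12 of the 100 members had a ratio of 1 or more, which is a doubling after the 50 CPM are added, and 88 lay below it. The last genes inside the list were 06G106500 and 08G005500 at 0.44 and 0.43, and the first outside were 01G143500 and 15G021100 at 0.43 and 0.42, so the edge of the list does not mark a step. Chosen again without drought library 2, the list kept 41 of the 100 genes, and without control library 1 it kept 48.

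**Figure D2:**
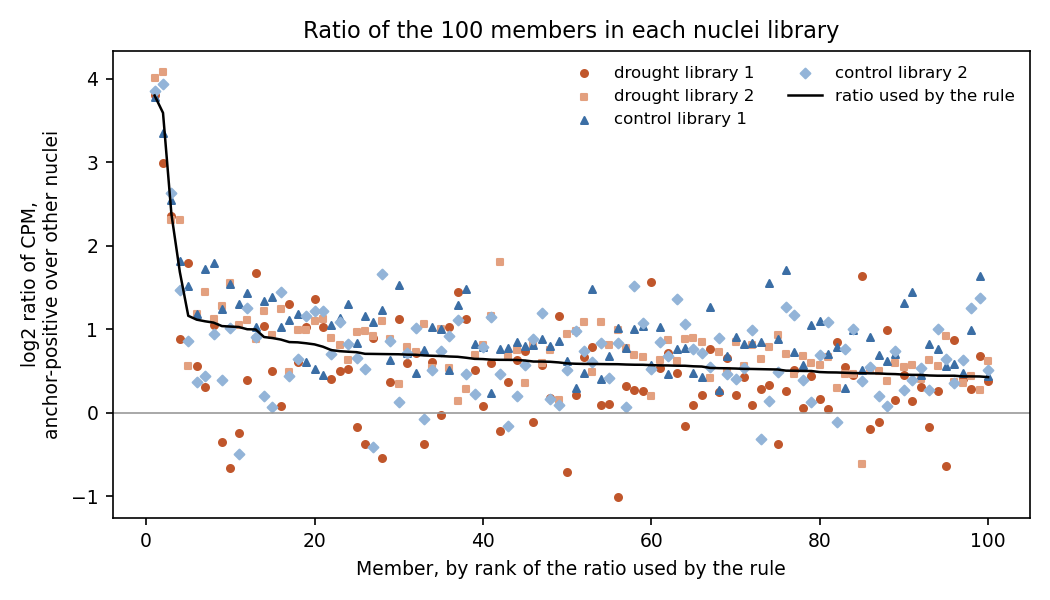
Log2 ratio of CPM in anchor-positive to other nuclei (50 CPM added, y axis) for the 100 members by rank (x axis), with 1 point for each nuclei library and a line for the ratio by which they were chosen. The line drops from 3.80 to 1.16 over the first 5 ranks and then declines slowly to 0.43, within the scatter of the libraries.

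Single libraries varied around these values. The median ratio of the 100 members was 0.42 and 0.75 in the drought libraries, against 0.85 and 0.69 in the controls. Over all 1984 genes with enough UMIs the medians were 0.06 and 0.02 under drought, against 0.11 and 0.07 in controls. Of the members, 77 were above 0 in every library, and 269 of the 1984 genes were. Drought library 1, with the fewest positive nuclei, had 82 of 100 members above 0, and the other 3 libraries had 94 to 100.

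Some members barely belonged to this anchor more than to another. The gap between a member's ratio for 03G169600 and its best ratio for another anchor was widest for 03G169300, at 3.84 on the log2 scale, and smallest for 10G119300, at 0.0053, with a median of 0.49. The closest other anchor was 06G122800 for 72 members, 03G005800 for 16, 16G095400 for 7, 10G108800 for 3 and 07G032900 for 2. In the nuclei themselves, 06G122800 was found in 0 of 50 and 15 of 123 anchor-positive nuclei under drought, against 1 of 84 and 6 of 64 in controls. For drought library 2 that was 12.2% of positive nuclei, compared with 4.26% of the rest.

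The members came from every chromosome number in the IDs. The largest numbers were 9 on chromosome 6 and 8 each on chromosomes 1, 2, 3 and 18. There were 4 pairs of members 1 ID step apart. Besides the pair 03G169300 and 03G169400 these were 09G114800 and 09G114900, 13G084200 and 13G084300, and 18G083800 and 18G083900. Lists of 100 genes found in the same way for the other anchors held 1 to 12 such pairs.

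Nuclei that held a neighbour but no anchor UMI were used to look at the other 96 members in nuclei that the ratios had not counted as positive. There were 77 and 148 such nuclei under drought, against 124 and 135 in controls. They were among the other nuclei in those ratios, and the neighbours that mark them were the members of highest ratio. The values are thus a description and no independent check. These nuclei were also deeper than nuclei with neither, at a median of 549 and 397 UMIs under drought, compared with 427 and 350.5. In controls they had a median of 919.5 and 642 UMIs, compared with 736 and 509. The median ratio of the 96 members in them, relative to nuclei with neither, was 0.23 and 0.30 under drought, against 0.56 and 0.34 in controls, while the medians over all genes with enough UMIs were -0.04 and -0.02 under drought, against -0.0025 and -0.02 in controls. Of the 96 members, 38 (39.6%) were above 0 in all 4 libraries, compared with 186 of 1980 genes (9.39%). The 96 genes made up 2.56% and 3.44% of UMIs in these nuclei under drought, against 1.97% and 1.35% in controls. In nuclei with neither they made up 1.91% and 2.42% under drought, against 1.07% and 0.926% in controls.

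Nuclei with an anchor UMI and none of a neighbour were fewer, 25 and 33 under drought, against 21 and 10 in controls. There the 96 members had a median ratio of 0.02 and 0.42 under drought, against 0.35 and 0.35 in controls. In drought library 1 this was close to the 0.0035 of all genes. These members were present in anchor-negative nuclei as well: the share of UMIs of the 96 genes in anchor-positive nuclei was 1.42-fold and 1.90-fold that in the other nuclei under drought, against 2.39-fold and 2.03-fold in controls.

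Clusters of nuclei, made without the anchor, the members or any gene called between treatments in whole nuclei libraries, showed where the positive nuclei lay. Of 17 clusters with the libraries pooled, cluster 8 (944 nuclei, 5.57% of all) had the highest share of anchor-positive nuclei, 7.63%, and held 22.4% of them. Cluster 15, with 124 nuclei and a median of 1945.5 UMIs, was 5.65% anchor-positive. Its share was above that of cluster 8 in drought library 1 (2 of 41 nuclei, 4.88%) and in control library 2 (5 of 65 nuclei, 7.69%). Cluster 1, the most numerous with 5222 nuclei and a median of only 382 UMIs, was 2.87% anchor-positive and held 46.7% of the positive nuclei. In cluster 2, with 1932 nuclei and a median of 683 UMIs, the share was 0.466%. No cell type is named here, so no share known to come from free RNA alone could be set beside these. By library, 2.67% and 12.1% of cluster 8 was anchor-positive under drought, against 10.5% and 4.31% in controls, so the treatments overlapped.

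**Figure D3:**
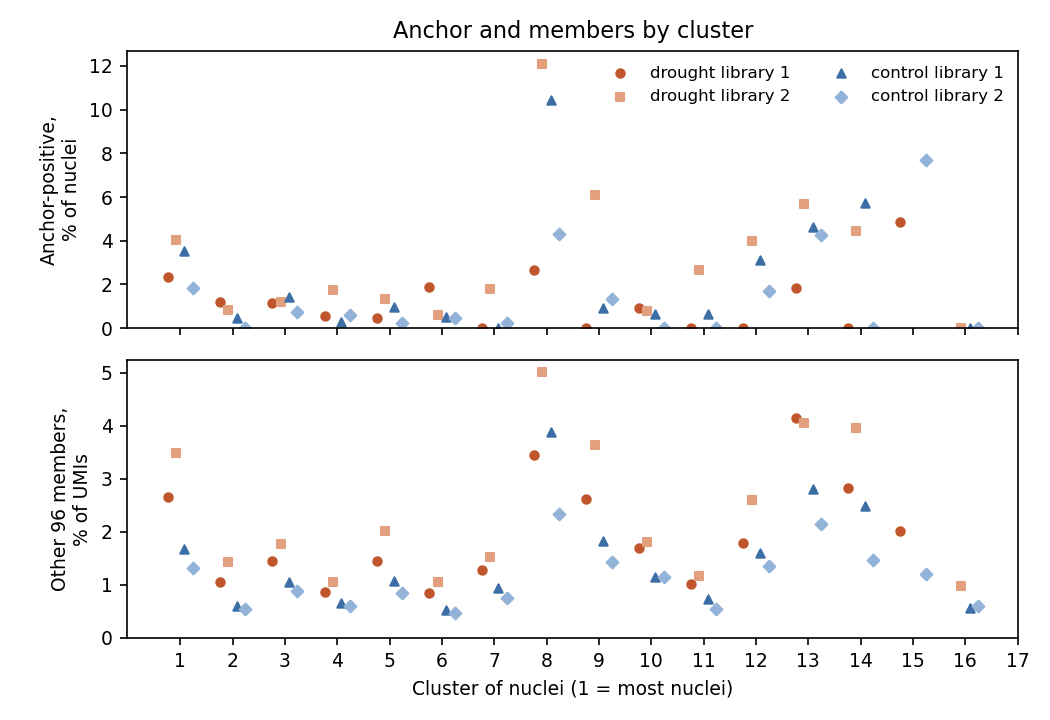
Share of nuclei with an anchor UMI (top, percent) and share of UMIs from the 96 members that are not neighbours (bottom, percent) in each cluster of nuclei (x axis, by size), with 1 point for each library that has at least 20 nuclei in the cluster. Cluster 8 had 2.67% and 12.1% anchor-positive nuclei under drought, against 10.5% and 4.31% in controls, and the members' share was highest in clusters 8 and 13.

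The 96 other members took 3.62% of UMIs in cluster 8, 2.23% in cluster 1 and 0.717% in cluster 2. Both drought libraries lay above both controls in 13 of 14 clusters, counting those where every library had 20 nuclei or more. Without 13G084200 and 13G084300, the members with the highest bulk levels, that held in 11 of 14. No such count was made for other genes, so these counts have no background and are a description. They use the UMIs and members of the drought comparison in whole nuclei libraries below, and carry the limits given there. In cluster 8 itself the 96 genes took 3.45% and 5.01% of UMIs under drought, against 3.89% and 2.34% in controls, which overlap. Cluster 1 held 40.5% and 41.7% of the nuclei under drought, against 17.6% and 28.3% in controls.

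In bulk RNA, whose counts took no part in the ratios, the drought response asked whether these genes change in the whole stem. The 4 neighbours did not move together. The bulk level of 03G169300 was 17.5, 13.5 and 18.3 CPM under drought, against 10.6, 8.85 and 8.77 CPM in controls. It rose by 0.93 on the log2 scale (SE 0.16, edgeR quasi-likelihood test with Benjamini-Hochberg adjusted p = 0.00319), and the groups did not overlap.

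The next gene by ID went the other way. The bulk level of 03G169400 was 9.23, 16.2 and 11.97 CPM under drought, against 42.6, 37.7 and 30.3 CPM in controls, a log2 fold change of -1.44 (SE 0.22, edgeR adjusted p = 0.00217). That of 03G169100 was 1.98, 2.98 and 2.47 CPM under drought, against 4.47, 3.61 and 4.55 CPM in controls, a log2 fold change of -0.64 (SE 0.21, edgeR adjusted p = 0.0358). Both fell, with no overlap between the groups. The call of 03G169100 did not hold without drought library 1 or 3 or without control library 1 or 3 (edgeR adjusted p = 0.086 to 0.11). The bulk level of 03G169700 was 4.22, 7.88 and 5.61 CPM under drought, against 5.55, 4.001 and 4.60 CPM in controls, and the groups overlapped (log2 fold change 0.45, SE 0.25, edgeR adjusted p = 0.17). The anchor had too few counts for this test.

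**Figure D4:**
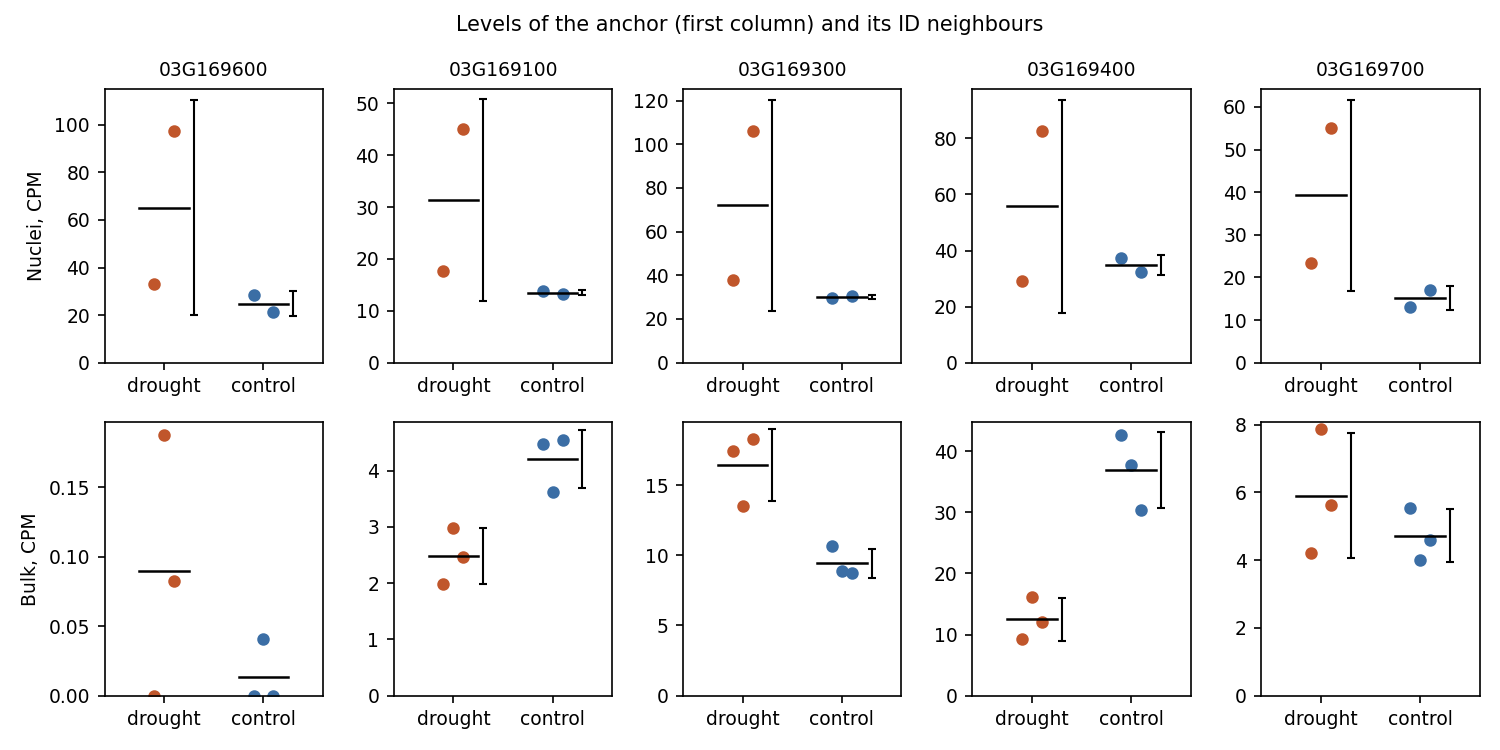
Levels of the anchor (first column) and its 4 ID neighbours in nuclei (top row) and in bulk RNA (bottom row), in CPM on axes that start at 0, with 1 point per library, a line for the mean and a bar of 1 SD (n = 2 nuclei and n = 3 bulk libraries a group; no bar for the anchor in bulk). In nuclei 1 drought library lies well above the other and above the controls for each gene, while in bulk 03G169300 was higher and 03G169400 and 03G169100 were lower under drought.

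The whole list moved mostly upward in bulk. Of the 100 members, all of which were tested, 60 rose, 14 fell and 26 did not pass the test. Over all 26448 genes tested 54.2% passed, 27.1% higher and 27.1% lower. Without drought library 2, 66 members rose and 22 fell, while more genes passed in all, 17816 of 26845. In the full fit the members thus exceeded the background in the higher direction and lay under it in the lower one. No test was made of the list as such. The median log2 fold change of the members in that fit was 0.62, against 0.01 over all genes. In bulk, fewer cells of a type and less RNA per cell cannot be told apart. The choice of members was not blind to drought, since a gene raised by drought could reach its 30 UMIs through drought nuclei. Of the members, 48 had fewer than 30 UMIs in control positive nuclei, and 60 had fewer than 30 in drought positive nuclei. The bulk counts of members are therefore not wholly independent of the choice.

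The largest bulk increases belonged to 13G084300 and 13G084200, neighbours by ID on another chromosome number. The bulk level of 13G084300 was 7096, 13138 and 5540 CPM under drought, against 96.9, 246.9 and 99.7 CPM in controls, a log2 fold change of 5.98 (SE 0.57, edgeR adjusted p = 0.000494). That of 13G084200 was 18311, 30278 and 15075 CPM under drought, against 497, 1074 and 482 CPM in controls, a log2 fold change of 5.08 (SE 0.47, edgeR adjusted p = 0.000457). Drought library 2 was the highest for both, and every drought library lay above every control. These were also the members with the highest mean bulk levels, 10953 CPM for 13G084200 and 4370 CPM for 13G084300, followed by 10G119300 at 1136 CPM. The summed bulk level of the 96 members that are not neighbours of the anchor was 49988, 67968 and 44285 CPM under drought, against 12751, 15116 and 12937 CPM in controls. Without those 2 genes it was 24581, 24552 and 23670 CPM under drought, against 12157, 13795 and 12355 CPM in controls.

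The most negative bulk changes were those of 02G185700 and 18G090400. The bulk level of 02G185700 was 6.03, 28.4 and 4.11 CPM under drought, against 124.6, 124.3 and 98.5 CPM in controls, a log2 fold change of -3.05 (SE 0.71, edgeR adjusted p = 0.0106). Drought library 2 was the nearest to the controls and still well below them, and without it the log2 fold change was -4.38. That of 18G090400 was 16.2, 26.0 and 16.4 CPM under drought, against 91.3, 91.6 and 80.6 CPM in controls, a log2 fold change of -2.04 (SE 0.19, edgeR adjusted p = 0.000477).

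In whole nuclei libraries the members also moved upward. All 100 were tested, 35 rose, 1 fell and 64 did not pass, whereas 8.84% of all 20768 genes tested passed, 3.63% higher and 5.21% lower. That background is not matched for counts. Every member had at least 30 UMIs in anchor-positive nuclei, as only 1984 genes besides the anchor did, and no share was computed over those genes. The median log2 fold change of the members was 0.70, against 0.01 over all genes. The UMIs are the ones from which the members were chosen, although the choice compared nuclei within each treatment. In particular, 48 members had fewer than 30 UMIs in control positive nuclei and were members only with the drought UMIs added, and 22 of the 35 that rose were among them. Likewise, 60 members had fewer than 30 UMIs in drought positive nuclei and needed the control UMIs, and of these 15 rose and 1 fell. Some members, in both sets, needed the UMIs of both treatments. Of the 52 with at least 30 in controls alone, 13 rose and 1 fell. Moving with this result, cluster 1 held more of the nuclei under drought, as given above, and its part in the result was not tested. Without drought library 2, 21 members rose.

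The 2 largest increases in nuclei belonged to the same pair as in bulk. The nuclei level of 13G084200 was 2698 and 3023 CPM under drought, against 149 and 133 CPM in controls (log2 fold change 4.31, SE 0.22, edgeR adjusted p = 3.75e-05). That of 13G084300 was 984 and 1218 CPM under drought, against 61.2 and 58.1 CPM in controls (log2 fold change 4.17, SE 0.22, edgeR adjusted p = 3.75e-05). For both genes the drought libraries lay close to each other and far above the controls. The only member that fell was 09G126200, at 121.7 and 111.3 CPM under drought, against 185 and 204 CPM in controls (log2 fold change -0.77, SE 0.18, edgeR adjusted p = 0.028). Leaving out 1 library kept its log2 fold change between -0.84 and -0.71. The edgeR adjusted p was then 0.065 without drought library 1, 0.12 without drought library 2 and 0.10 when control library 2 was left out, whereas the call held at 0.025 when control library 1 was left out.

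The 4 neighbours were high in drought library 2 alone among the nuclei libraries. The nuclei level of 03G169300 was 37.8 and 106.3 CPM under drought, against 29.5 and 30.5 CPM in controls (log2 fold change 1.24, SE 0.39, edgeR adjusted p = 0.079). That of 03G169400 was 29.0 and 82.7 CPM under drought, against 37.5 and 32.5 CPM in controls (log2 fold change 0.65, edgeR adjusted p = 0.35). The level of 03G169100 was 17.6 and 45.1 CPM under drought, against 13.8 and 13.2 CPM in controls (edgeR adjusted p = 0.10), and that of 03G169700 was 23.3 and 55.1 CPM under drought, against 13.1 and 17.1 CPM in controls (edgeR adjusted p = 0.059). The anchor itself had a log2 fold change of 1.36 (SE 0.42, edgeR adjusted p = 0.074, and 0.038 by DESeq2). Leaving out drought library 2 gave log2 fold changes of 0.29 for 03G169300, -0.31 for 03G169400, 0.34 for 03G169100, 0.59 for 03G169700 and 0.37 for the anchor. Leaving out drought library 1 gave 1.79, 1.21, 1.71, 1.84 and 1.93 in the same order, all of which passed. Summed, the neighbours reached 107.7 and 289 CPM in nuclei under drought, against 93.9 and 93.3 CPM in controls. In bulk the sum was 32.9, 40.6 and 38.3 CPM under drought, against 63.2, 54.2 and 48.2 CPM in controls.

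**Figure D5:**
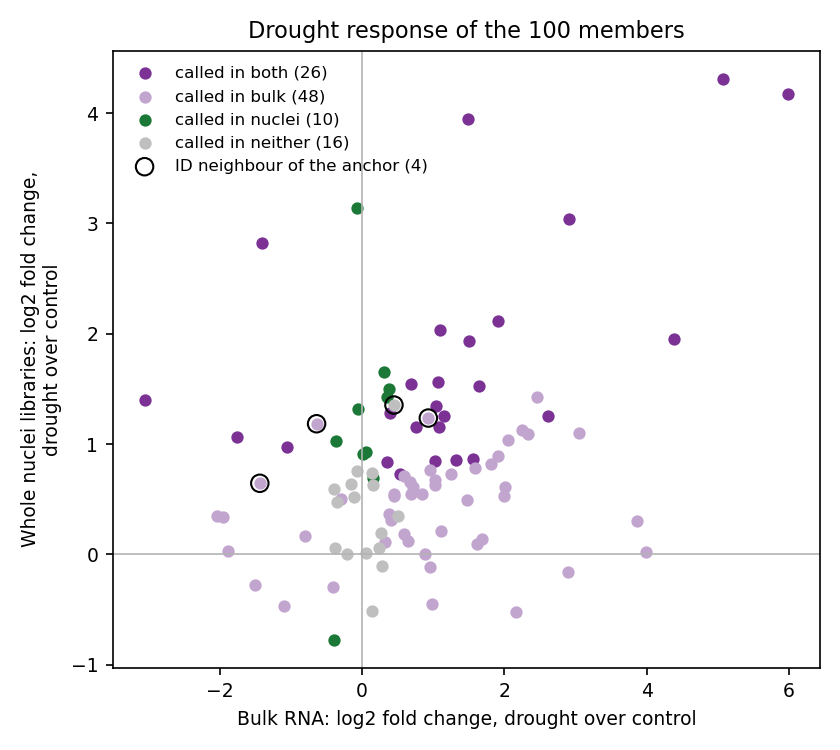
Log2 fold change under drought over control in bulk RNA (x axis) and in whole nuclei libraries (y axis) for the 100 members, with colour for the assay in which each was called and rings around the 4 ID neighbours of the anchor. Most points lie in the upper right, 26 were called in both assays, 48 in bulk alone, 10 in nuclei alone and 16 in neither.

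Between assays, 22 members rose in both and none fell in both, while of all 20588 genes tested in both 2.36% rose in both and 4.06% fell in both. A further 4 members fell in bulk and rose in nuclei: 02G185700, 19G029700, 13G111300 and 19G092000. Of all genes 0.199% did so. These counts carry the limit given above for members that needed drought UMIs. In control positive nuclei 02G185700 had 17 and 3 UMIs, and 19G029700 had 6 and 8. In drought positive nuclei 19G029700 had 7 and 55 UMIs, so it became a member through the nuclei in which it is high. Its rise in nuclei is thus not independent of the choice. There 02G185700 had 3 and 14 UMIs, so it needed those of both treatments, and the choice was not blind to its rise either. The nuclei level of 02G185700 was 58.0 and 51.1 CPM under drought, against 17.5 and 23.1 CPM in controls (log2 fold change 1.40, SE 0.25, edgeR adjusted p = 0.0112), opposite to its bulk values above. For 19G029700 the bulk level was 20.9, 33.6 and 16.1 CPM under drought, against 55.8, 60.2 and 87.6 CPM in controls. In nuclei it was 152.8 and 426.1 CPM under drought, against 37.0 and 43.2 CPM in controls. The groups overlapped in neither assay for any of the 4 genes. A direct contrast of the drought effects passed for 18 members, 12 of them more positive and 6 more negative in nuclei, while 7.21% of all 27746 genes tested passed, 2.34% more positive and 4.87% more negative (edgeR, 1 model of all 10 libraries, added after the data were seen). Leaving out 1 library gave 5 to 29 more positive and 1 to 21 more negative, the most without bulk drought library 2.

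Sums over the anchor-positive nuclei alone asked whether the members change in nuclei that hold the anchor. These sums were small, with 38061 and 63294 UMIs under drought, against 105906 and 61158 in controls. Only 69 members had enough UMIs to be tested and 31 did not, among them 03G169700. With that filter, 4 members rose and none fell, and 65 did not pass, while 2.28% of all 1096 genes tested passed, 0.912% higher and 1.37% lower. Of the 52 members with at least 30 UMIs in control positive nuclei, 1 rose and none fell. Of the 48 with fewer, which were members only with the drought UMIs added, 3 rose and none fell. At an unadjusted p under 0.05 there were 11 members (15.9% of those tested, against 10.5% of all genes tested). DESeq2 called 2 members higher and none lower, of 3 genes called among 1096. Without drought library 2, or without control library 1, 2 members rose.

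The 4 that rose in anchor-positive nuclei were 16G008900, 13G084300, 13G084200 and 19G029700. In control positive nuclei, 16G008900, 13G084300 and 19G029700 had only 18, 24 and 14 UMIs. They reached the 30 UMIs that membership needs through the drought nuclei in which they are high. The choice thus favoured such a difference, and their calls support nothing. For 13G084200 there were 409 UMIs under drought, against 64 in controls. The level of 13G084200 in these nuclei was 3127 and 4582 CPM under drought, against 340 and 458 CPM in controls (log2 fold change 3.25, SE 0.43, edgeR adjusted p = 1.01e-05), and the adjusted p was 0.058 without control library 1. That of 13G084300 was 893 and 2101 CPM under drought, against 141.6 and 147.2 CPM in controls (log2 fold change 3.36, SE 0.60, edgeR adjusted p = 0.00103), and the adjusted p was 0.059 without control library 1 and 0.19 in nuclei with at least 2 anchor UMIs. Without drought library 2 its log2 fold change was 2.48. The largest change, that of 16G008900, rested on 1 library. Its level was 263 and 4503 CPM under drought, against 113.3 and 98.1 CPM in controls (log2 fold change 4.48, SE 0.76, edgeR adjusted p = 0.000685), without drought library 2 it was 1.14 (edgeR adjusted p = 0.82), and by DESeq2 the adjusted p was 0.33. The level of 19G029700 was 184 and 869 CPM under drought, against 56.7 and 130.8 CPM in controls (log2 fold change 2.64, SE 0.64, edgeR adjusted p = 0.0162). It did not pass by DESeq2 (adjusted p = 0.32), nor by edgeR without drought library 2 (log2 fold change 0.89), control library 1 (2.00) or control library 2 (3.18).

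In anchor-positive nuclei the drought and control values of the neighbours tested overlapped. The level of 03G169300 was 893 and 1517 CPM under drought, against 784 and 899 CPM in controls (log2 fold change 0.50, SE 0.49, edgeR adjusted p = 0.86). That of 03G169400 was 499 and 1343 CPM under drought, against 680 and 965 CPM in controls (log2 fold change 0.17, SE 0.53), and that of 03G169100 was 263 and 348 CPM under drought, against 283 and 311 CPM in controls (log2 fold change 0.05, SE 0.50). With standard errors of this size, differences as large as those given were not detectable at this depth.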

How the data were processed

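Deposited data were 4 single-nucleus matrices (2 drought, 2 control; raw UMI counts per gene and barcode, per the file headers) and a bulk table of raw read counts per gene (3 drought, 3 control). HISAT2 is listed in the submitters' processing notes with no role. For the counting software, build, strandedness and barcode selection, the sources used here give nothing. Of the features, 31823 were genes; the 25 ribosomal and transfer RNA features took 0.0574% to 0.478% of UMIs and were left out. Nuclei with 200 or more genes (16950 of 20406 barcodes) gave the ratios. No doublet caller was run, so doublets remain.

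Groups follow the treatment named in the titles. Differential expression was tested with edgeR 4.0.16 (quasi-likelihood F test, TMM scaling, filterByExpr, Benjamini-Hochberg FDR under 0.05 over all genes tested) in R 4.3.3, on bulk counts, on UMIs summed over all barcodes of a library, and on UMIs summed over its anchor-positive nuclei. The scripts were tested on simulated data. Each SE was obtained as the fold change (log2) over the root of F. CPM values are per 1000000 counts in genes. DESeq2 1.42.0, no scaling, no filter, a replicate block and leaving out each library were alternatives. Nuclei were clustered with scanpy 1.11.5 and leidenalg 0.10.2 without 1900 genes (2000 variable genes, 30 components, 15 neighbours, resolution 0.5).

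Members and lists were chosen with earlier results of these data known. Genes are named by rule: the anchor; the 8 members of highest ratio; those at the edge of the list; in each comparison the 2 largest changes called each way; the 3 with the highest bulk level; and those with the widest and smallest gap to another anchor. Members in a count of 5 or fewer, 03G168000 and the genes numbered around the anchor were named after their values were seen.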

Additional observations from a re-analysis of the deposited data

Results flagged for a closer look

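Nuclei and bulk RNA gave different drought effects for 18 of the 100 members, by a contrast of both effects in 1 edgeR model of all 10 libraries with a shared estimate of spread, which was added after the data were seen. It was more positive in nuclei for 12 and more negative for 6, while 7.21% of 27746 genes passed, 2.34% more positive and 4.87% more negative. In 12 of the 18 the fold changes of the separate comparisons had opposite signs. Of these, 4 were called in both assays, lower in bulk and higher in nuclei. In the others the change in 1 assay was not called, so its sign is uncertain. Among the named members more positive in nuclei, 02G185700 differed by 4.36 on the log2 scale (SE 0.98, edgeR adjusted p = 0.0293) and 19G029700 by 4.14 (SE 0.61, edgeR adjusted p = 0.00745). The membership of 19G029700 rested on the drought UMIs and that of 02G185700 needed both treatments, so their nuclei side is not independent of the choice.

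The difference was 2.73 for 13G111300, 2.30 for 18G090400, 2.21 for 06G106500 and 1.94 for 19G092000. For the anchor's ID neighbour 03G169400 it was 1.99 (SE 0.52, edgeR adjusted p = 0.0467). The most negative differences were -4.07 for 12G018500 (SE 0.68, edgeR adjusted p = 0.0112) and -3.16 for 05G193100 (SE 0.60, edgeR adjusted p = 0.0172). The bulk level of 12G018500 was 201.7, 164.3 and 207.9 CPM under drought, against 12.1, 13.2 and 14.0 CPM in controls, while its nuclei level was 11.9 and 45.6 CPM under drought, against 41.7 and 13.5 CPM in controls. Leaving out 1 library at a time kept every sign, and the calls of 13G111300, 18G090400 and 19G029700 held throughout. The call of 02G185700 was lost in 8 of these 10 fits, that of 06G106500 in 9 and that of 03G169400 in 8, while 12G018500, 05G193100 and 19G092000 lost theirs in 1, without nuclei control library 1. The differences then ran from 1.04 to 2.56 for 03G169400 (the lowest without nuclei drought library 2), from -5.35 to -3.00 for 12G018500 (the smallest change without nuclei control library 1) and from -4.52 to -2.47 for 05G193100.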

How the results depend on the processing

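The alternatives below were compared with counts of 60 members higher and 14 lower in bulk, 35 and 1 in nuclei, 4 and 0 in anchor-positive nuclei, and 12 and 6 for the difference between assays. Leaving out 1 library gave 49 to 66 higher and 11 to 22 lower in bulk (22 without drought library 2), 21 to 52 and 0 to 2 in nuclei (21 without drought library 2), and 2 to 6 higher and 0 to 0 lower in anchor-positive nuclei (2 without drought library 2 or control library 1). The difference between assays then gave 5 to 29 more positive and 1 to 21 more negative in nuclei (29 and 21 without bulk drought library 2, 5 and 1 without nuclei control library 1). Over all genes tested in bulk, 10513 of 26789 passed without control library 3 and 17816 of 26845 without drought library 2. Where a group was left with 1 library, that library was taken to vary like the others. In anchor-positive nuclei DESeq2 gave 2 higher, nuclei with at least 2 anchor UMIs 1, and the replicate block 1. In the same order 3 of 1096, 3 of 61 and 1 of 1096 genes passed. Without scaling the difference gave 22 more positive. Of the 100 members, 47 were found again with at least 60 UMIs, 56 by the lowest ratio of the 4 libraries, and 41 to 78 on leaving out a library (41 without drought library 2, 48 without control library 1). The share difference ran from 0.047 (without drought library 2) to 1.76 percentage points. Without scaling the bulk median of all genes was -0.12, and 53 members were higher and 14 lower, while 14376 of 26448 genes passed. Of the fold changes named above, those called kept their direction under every alternative run. Uncalled changes of ID neighbours did not. Leaving out 1 library gave -0.31 to 1.21 for 03G169400 in nuclei and, in anchor-positive nuclei, -0.050 to 0.87 for 03G169300, -0.84 to 0.74 for 03G169400 and -0.31 to 0.25 for 03G169100, each lowest without drought library 2. In the last kind of nuclei 03G169400 was at -0.28 with at least 2 anchor UMIs, and 03G169100 at -0.074 without the filter and -0.00090 with the replicate block. Without the filter, the anchor, 03G169300, 03G169100 and 03G169700 passed in nuclei; the cause was not tested.

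Same-numbered libraries had correlated deviations of -0.0021, -0.0044 and 0.03 in bulk, -0.11 in nuclei and -0.018 in anchor-positive nuclei. With 2 nuclei libraries in each group, crossed numbers must give the same size with the opposite sign. These values therefore cannot settle whether the numbers pair samples, and the main tests did not pair them. With the replicate block, 56 members were higher and 13 lower in bulk, 35 and 1 in nuclei, the difference gave 7 more positive and 2 more negative, and 13G084200 alone stayed called in anchor-positive nuclei (13G084300 had an edgeR adjusted p of 0.11). Crossed numbers in nuclei, added after the data were seen, gave 53 higher and 1 lower. Over all genes tested, the replicate block called 12779 of 26448 in bulk and 1672 of 20768 in nuclei. The crossed numbers called 2792 of 20768.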

Other observations

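Barcodes with fewer than 200 genes, which were left out of the ratios, also held the anchor. It was found in 3 of 1031 such barcodes in drought library 1 and in 37 of 2327 in drought library 2, against 0 of 97 and 0 of 1 in controls, where 0 of 97 allows a share of up to 3.09%. In the 37 of drought library 2, with a median of 186 UMIs, 18 also held a UMI of an ID neighbour (48.6%), compared with 2.36% of the other 2290. The 96 other members had a median ratio of 0.04 there, compared with -0.18 over all genes with enough UMIs, and took 3.83% of UMIs, compared with 2.70% in the other barcodes of that kind.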
